A study of Mus musculus with 2 samples.

Results

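Voltage-gated calcium channels of the beta cell were examined on a pair of one-color Agilent arrays of MIN6 cells. The group comprised 10 named subunits. These were the pore subunits Cacna1a, Cacna1b, Cacna1c, Cacna1d, Cacna1e, Cacna1g and Cacna1h, the beta subunits Cacnb2 and Cacnb3, and the alpha2delta subunit Cacna2d1. Every probe whose RefSeq accession belongs to 1 of these genes was taken. This gave 16 probes of 10 genes, out of 39417 probes and 20653 named genes on the arrays. Each of the 16 probes was printed once per array. MIN6 is a mouse insulinoma line, labelled as derived from a transgenic C57Bl/6 mouse and used at passages 15 to 20. One culture had received lentivirus made from PLVX-IRES-ZsGreen-mFTO, which carries mouse FTO, an enzyme that removes methyl groups from RNA. The control culture had received virus from the same vector, PLVX-IRES-ZsGreen, without FTO, so the virus and the green fluorescent marker were common to both. Both were exposed to virus with 8 µg/ml polybrene, and fluorescence was read after 48 h. The promoter that drives the transgene is not given in the sources used here. There was 1 array per condition, so the differences below have no replicate check and carry no p-value.

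Glucose closes potassium channels in the beta cell and depolarizes its membrane, which opens voltage-gated calcium channels and lets in the calcium that triggers insulin release. A pore subunit forms the channel and sets its type (L, P/Q, N, R or T). Beta subunits bind the pore inside the cell and help it to reach the membrane, and alpha2delta subunits bind it from outside and raise the current. Cacna1e, the pore of the R-type channel, is tied to the later phase of insulin release. It was the only subunit that the study followed by quantitative PCR, and its primer pair is the only sequence given for a subunit in the sources used here. The sequences are shown 5′ to 3′ because they define the Cacna1e amplicon. The array probe is known here by name and accession only, so the part of the transcript that it reads cannot be set against these primers.
Cacna1e forward primer: gtgctttccggggaatttg
Cacna1e reverse primer: tatccaggcacggtagccg

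The signal of a spot is given below as deposited, after background subtraction and before normalization between arrays. The log2 difference is the FTO-labelled array minus the control-labelled array after quantile normalization. Tested probes are those that the scanner software marked as well above background on 1 array or both, and a 2-fold difference means more than 2-fold in either direction. Signals of different probes depend on the probe as well as on the transcript, so no transcript is said to be more abundant than another. The brightest probes of a list served only to choose which genes to name. The spot error is the combined error estimate of both spots on the log2 scale. It covers the spots and not the cultures.

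Fto, the gene carried by the virus, had signals of 7301 on the FTO-labelled array and 5179 on the control-labelled array, a log2 difference of 0.06 (spot error 0.20), so its probe was not higher on the FTO-labelled array beyond the spot error. The part of the Fto transcript that this probe reads is not known here. Whether it can read the transgene is therefore not known either. On the arrays alone, the direction of every difference rests on the labels. All 10 beta cell markers, Ins1 and Ins2 among them, were well above background on both arrays. Their summed signal was 990085 on the FTO-labelled array and 1004759 on the control-labelled array. Of 16 probes for markers of other cell types, 14 and 15 were well above background. Their summed signal was 275912 and 257847, nearly all of it from Gcg, which encodes glucagon, at 257411 and 243559. Of the delta cell markers, Sst, which encodes somatostatin, was well above background on both arrays, at 1834 and 1225, and Hhex passed the background flag on neither. Before normalization the FTO-labelled array was brighter for 83.6% of all tested probes, with a median log2 difference of 0.34, and for 15 of the 16 subunit probes.

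All 16 subunit probes were well above background on the FTO-labelled array, and 15 were on the control-labelled array. The exception was Cacna1e. Of all tested probes, 5.63% passed on 1 array only. After normalization none of the 15 probes of the other 9 genes differed by more than 2-fold. Cacna1e passed 2-fold only as measured. As its control signal was not well above background, it has a bound only. With quantile normalization this was at least 1.83-fold higher on the FTO-labelled array, and with scaling to the 75th percentile at least 1.38-fold. The count of 1 of 10 genes past 2-fold becomes 0 with the bound. In a bulk RNA extract, fewer cells that express a gene and less RNA of it per cell cannot be told apart. Over the whole array 3.48% of 33844 tested probes and 3.21% of 18513 tested genes differed by more than 2-fold, with 1.29% of probes higher on the FTO-labelled array and 2.18% lower. The higher probes were 37.2% of these, and 15.6% with each array scaled to its 75th percentile. The share of 2-fold differences was 1.54% among probes that passed the background flag on both arrays and 36.0% among those that passed on 1 only. This contrast is partly fixed by the split, since a pass on 1 array only depends on the difference itself. The median log2 difference of the subunit probes was 0.11, with 12 above 0 and 4 below, and 9 lay above 0 with scaling to the 75th percentile. Over all tested probes the median was 0.01, and 51.3% lay above 0. Without Cacna1e the median was 0.06, and the values lay between -0.19 (Cacna1b) and 0.37 (Cacnb2). The difference exceeded the spot error in 4 of 16 probes, and in 32.4% of all tested probes.

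**Figure D1:**
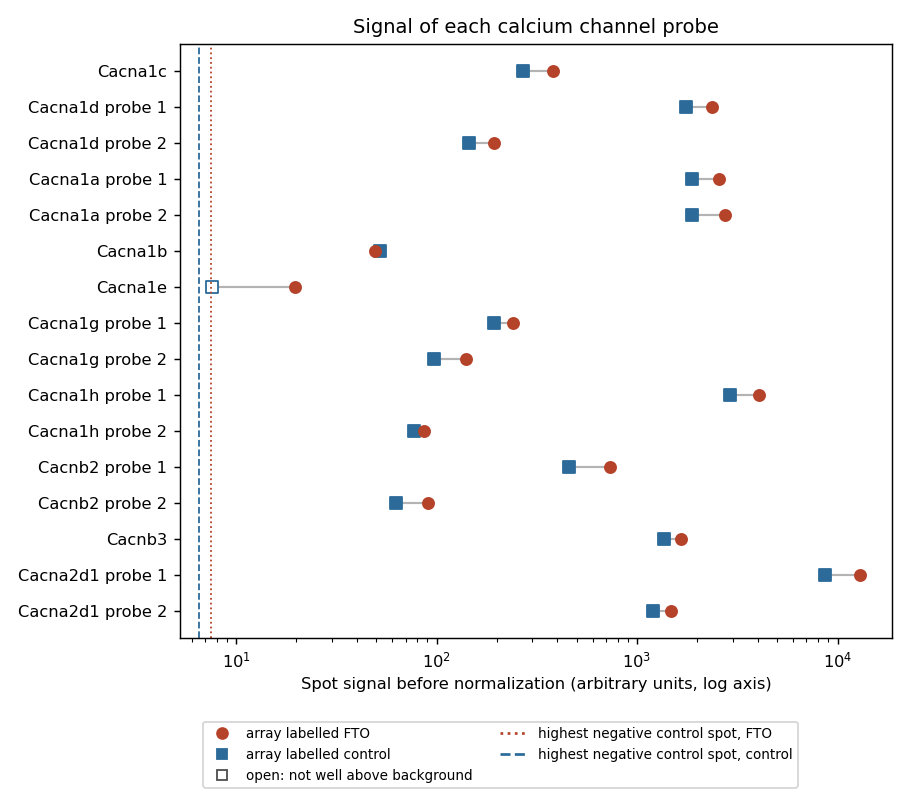
Signal of each subunit probe before normalization, in arbitrary units on a log axis, with the FTO-labelled array as circles and the control-labelled array as squares. Open marks are not well above background, and vertical lines mark the highest of 153 negative control spots on each array (7.53 and 6.57). Only the control signal of Cacna1e, at 7.60, is open, and it lies just above the line for its own array.

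The single Cacna1e probe (A_52_P1180358, NM_009782) had a signal of 19.7 on the FTO-labelled array and 7.60 on the control-labelled array. The raw median of the spot was 72.0 over a local background of 33.0 on the former, and 54.5 over 32.5 on the latter. The spot was thus faint on both arrays, and only 1 of the pair passed the flag. The software gave it the weaker flag, positive and significant, on both. Each array holds 153 negative control spots, which match no transcript. The brightest of these had a signal of 7.53 on the FTO-labelled array and 6.57 on the control-labelled array, so Cacna1e was brighter than all of them on each array.

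As measured, the log2 difference of Cacna1e was 1.39, with a spot error of 0.51. A second estimate of the noise came from 399 probes printed 10 times on each array. For repeated probes as bright as Cacna1e, the spread between spots of the same probe, combined over both arrays, was 0.58. Neither estimate covers the spread between cultures. Since the control signal was not well above background, the difference is a bound. Set against the lowest signal well above background on the control-labelled array, Cacna1e was at least 1.83-fold higher on the FTO-labelled array. This is a log2 bound of 0.87, under the 2-fold threshold. With dim signals treated so on both arrays, 2.20% of all tested probes passed that threshold. The bound was 0.46 with scaling to the 75th percentile and 0.70 with cyclic loess. None of these bounds allows for the error of the signal on the FTO-labelled array. With normexp, a background correction that adds an offset of 50 to each signal and so shrinks differences between faint spots, the difference as measured was 0.30, and it is not comparable with these bounds.

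Probes as faint as Cacna1e were set beside it, as a description only. Probes this faint can be tested through their brighter array alone, and that choice in itself widens their differences. Of 1825 tested probes with a mean log2 signal within 0.5 of that of Cacna1e, 21.5% differed by more than 2-fold and 10.5% were more than 2-fold higher on the FTO-labelled array. The difference was at least as high as that of Cacna1e in 122 of them (6.69%). The middle 95% of these probes spanned -2.05 to 2.31, and Cacna1e lay inside this range. The width of the range is partly fixed by the choice of tested probes. The next probes were chosen, like Cacna1e, through the array where they are brighter, so they lean to higher values by that choice and are a description only. Of the 394 probes that were well above background on the FTO-labelled array only, 69.3% were more than 2-fold higher there. Their median was 1.45, and 51.8% of them differed by at least as much as Cacna1e.

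**Figure D2:**
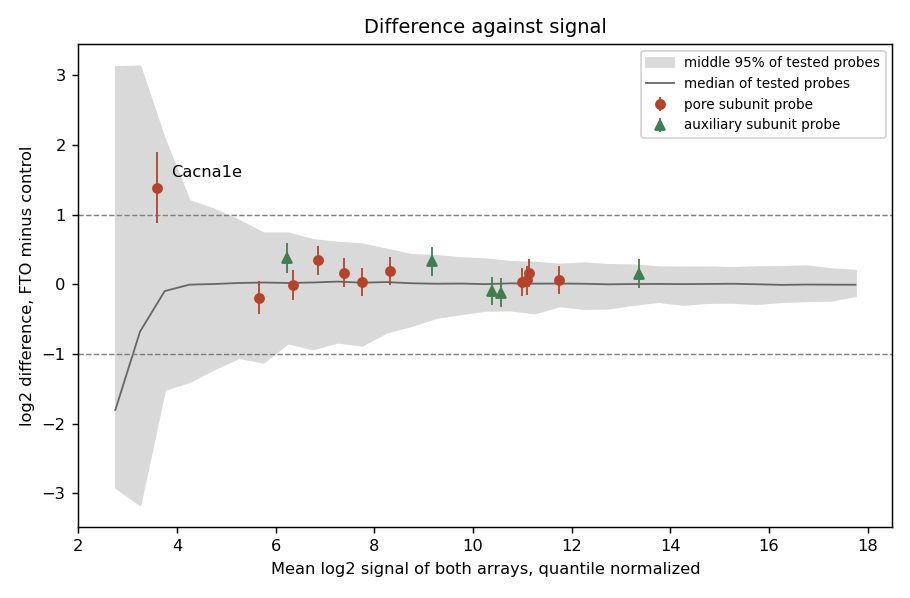
The log2 difference (FTO minus control) of each subunit probe against its mean log2 signal on both arrays, with the spot error as bars. Grey shows the middle 95% of tested probes in steps of 0.5 of signal, the line their median, and dashes the 2-fold limits. Cacna1e (1.39 as measured) is the faintest subunit probe and lies where the grey band is wide, and the other 15 lie between the limits. Faint probes can be tested through their brighter array alone, which partly fixes the width of the band there.

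L-type channels carry much of the calcium current of the mouse beta cell. Cacna1c (NM_001256002), an L-type pore, had signals of 381 on the FTO-labelled array and 269.8 on the control-labelled array. Its log2 difference was 0.19, which is smaller than its spot error of 0.20 and larger than the spread between repeated spots of like signal, 0.08. It was 0.07 with scaling to the 75th percentile, which is below that spread, and 0.11 with normexp. Cacna1d (NM_001083616), the other L-type pore, had a pair of probes. Probe A_51_P251209 had signals of 2359 and 1761 on the FTO-labelled and control-labelled arrays, a difference of 0.03, and probe A_55_P2125376 had signals of 192 and 145, a difference of 0.17. Both were within the spot error. The direction of the first flipped to -0.004 with scaling to the 75th percentile, to -0.002 with cyclic loess and to -0.01 with normexp, and that of the second flipped to -0.02 with scaling to the 75th percentile.

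The channels of the P/Q and N type are best known from nerve terminals, where they trigger transmitter release. Cacna1a (NM_007578), the P/Q-type pore, had signals of 2565 on the FTO-labelled array and 1884 on the control-labelled array at probe A_55_P2142393, and 2747 and 1873 at probe A_55_P2120308. The differences were 0.06 and 0.16, each with a spot error of 0.20. That of probe A_55_P2142393 was -0.03 with normexp. Cacna1b (NM_001042528), the N-type pore, had signals of 49.5 on the FTO-labelled array and 51.9 on the control-labelled array, and was the only subunit whose FTO signal was the lower before normalization. Its log2 difference of -0.19 was the lowest of the 16, and smaller than its spot error of 0.24. It was -0.49 with scaling to the 75th percentile, and below 0 with cyclic loess and normexp. The other alternatives left it nearly unchanged.

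T-type channels open near the resting potential. Cacna1g (NM_009783), a T-type pore, had signals of 239 on the FTO-labelled array and 193 on the control-labelled array at probe A_55_P2132756, and 140.2 and 96.6 at probe A_51_P466910. The difference was 0.04 at the former and 0.34 at the latter, a 1.27-fold difference with a spot error of 0.21. The probes of this gene thus differed from each other by 0.31, slightly more than their combined spot error of 0.30. With scaling to the 75th percentile they were -0.12 and 0.11. Cacna1h, the other T-type pore, had signals of 4076 and 2912 at the probe for NM_021415 and 86.3 and 77.4 at the probe for NM_001163691. The differences of 0.06 and -0.02 were both within the spot error. The latter was -0.27 with scaling to the 75th percentile.

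Of the auxiliary subunits, Cacnb2 had the highest differences. Cacnb2 (NM_023116), a beta subunit, had signals of 729.7 on the FTO-labelled array and 458.7 on the control-labelled array at probe A_51_P283300, and 90.9 and 62.6 at probe A_52_P209514. The differences were 0.33 (1.25-fold, spot error 0.20) and 0.37 (1.29-fold, spot error 0.22). Both exceeded the spot error, and neither reached 2-fold. Under the alternatives they lay between 0.24 and 0.33 at the former and between 0.11 and 0.37 at the latter, all above 0. Cacnb3 (NM_007581), a beta subunit known to restrain calcium signals in the beta cell, had signals of 1651 and 1369. Its difference was -0.12 with a spot error of 0.20, and it lay between -0.19 and -0.12 under the alternatives.

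Cacna2d1, the alpha2delta subunit of the group, had a pair of probes for different RefSeq transcripts. The probe for NM_001110843 had signals of 12952 on the FTO-labelled array and 8654 on the control-labelled array and a difference of 0.15. The probe for NM_009784 had signals of 1469 and 1203 and a difference of -0.10. The directions are opposite, and each difference was within its spot error of 0.20. Both kept their signs with scaling to the 75th percentile, cyclic loess and normexp. The other alternatives left them nearly unchanged. The gap between the probes was 0.25, which is smaller than their combined spot error of 0.29 and larger than the combined spread of repeated spots, 0.11.

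**Figure D3:**
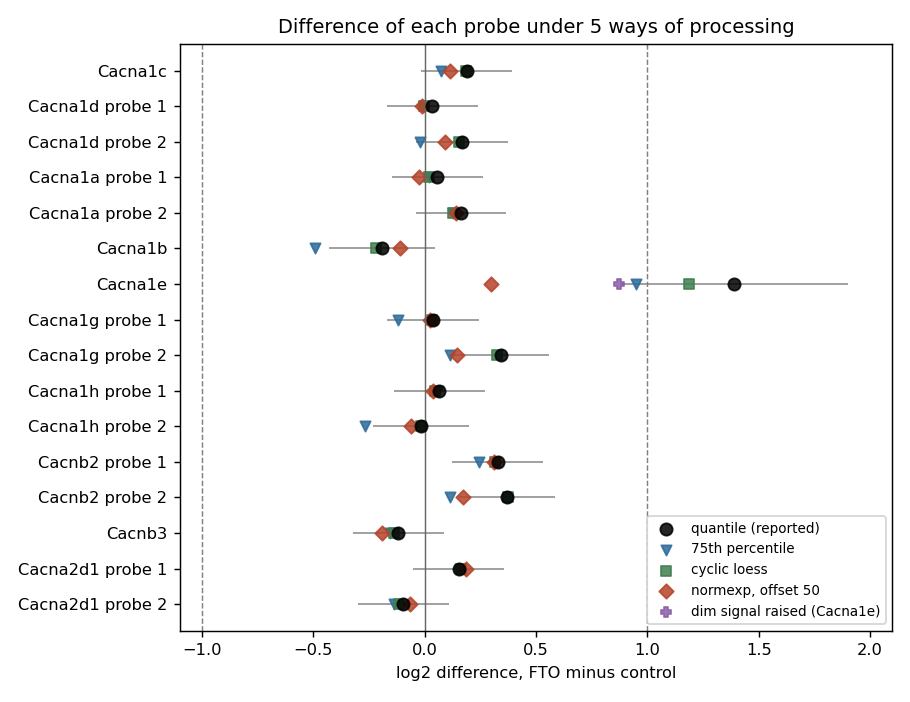
The log2 difference (FTO minus control) of each subunit probe after quantile normalization, with the spot error as bars, and under other ways of processing (the cross, for Cacna1e only, is the bound). Dashed lines mark 2-fold. Cacna1e moves from 1.39 to 0.30 between settings, and both Cacnb2 probes lie above 0 in each.

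Where a gene has a pair of probes, their values are repeat measurements of the same RNA extract. Both probes were well above background on each array for 3837 genes. Over these the median gap between the log2 differences was 0.14, and 60.3% had both on the same side of 0. Of the 6 subunits with 2 probes, 4 had a smaller gap than this median and 4 had both on the same side. Cacnb2 was the only subunit with both above 0.3, as in 1.85% of the 3837 genes, and 3.21% had both more than 0.3 from 0 on the same side, in either direction. The limit of 0.3 was chosen after the Cacnb2 values had been seen. The spread of repeated spots gives a tighter limit than the spot error for bright probes. The difference exceeded this spread in 10 of 16 subunit probes (62.5%), and in 54.1% of all tested probes. It was over 2 times the spread in 5 of 16 subunit probes (31.2%), and in 25.7% of all tested probes.

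An area of the FTO-labelled array held many low spots, and 5 of the 16 subunit spots lay in it. The area was defined with 79 probes printed 10 times, as 6 adjoining blocks in which at least 15% of their spots were more than 0.5 (log2) below the median of their probe. The blocks and limits were chosen after the distribution of these spots was known. In these blocks 29.0% of the repeated spots were low on the FTO-labelled array, against 1.86% elsewhere, a contrast that the choice of blocks fixes. On the control-labelled array 0.690% were low in the same blocks. The spots inside were those of Cacna1e, Cacna1c, the Cacna1h probe for NM_021415, the Cacnb2 probe A_52_P209514 and the Cacna2d1 probe for NM_009784.

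The median log2 difference was 0.19 for the 5 subunit probes inside and 0.06 for the 11 outside. Over all tested probes printed once it was 0.01 for 5938 inside and 0.01 for 27551 outside. Inside, 2.14% of all tested probes were more than 2-fold higher on the FTO-labelled array and 6.42% lower, against 1.13% and 1.30% outside. In the block that holds Cacna1e, 18.5% of 27 repeated spots were low on the FTO-labelled array. Within 10 rows and 10 columns of it lay 349 tested probes with a median difference of 0.04, of which 8 were more than 2-fold higher and 7 lower. The low spots lie on the array where Cacna1e was the brighter. The part of the area in each difference was not tested. Of the genes with a probe on each side, the inner probe had the higher difference in Cacna1h and Cacnb2 and the lower in Cacna2d1.

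**Figure D4:**
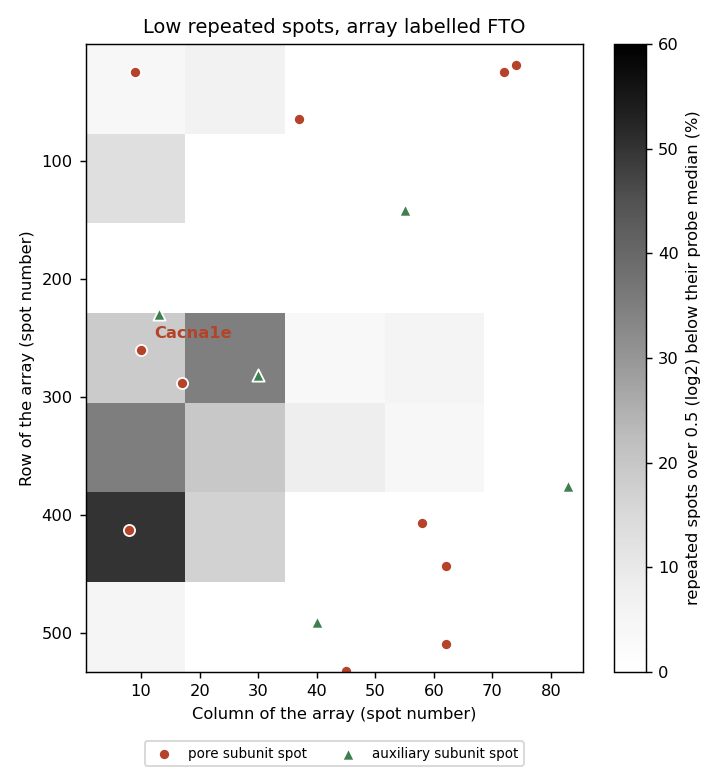
Position of the subunit spots on the array, by row and column of spots, over the share (%) of repeated spots on the FTO-labelled array that lay more than 0.5 (log2) below the median of their probe. The 6 darkest blocks, at the left, hold 5 subunit spots, Cacna1e among them, and the other 11 lie elsewhere.

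The other subunits of the channel family were placed beside these. They were the L-type pores Cacna1f and Cacna1s, the T-type pore Cacna1i, and further beta, alpha2delta and gamma subunits, 16 genes with 20 probes. Of these, 17 probes of 15 genes were tested and none differed by more than 2-fold. Their median log2 difference was 0.01, with 9 above 0 and 8 below. With scaling to the 75th percentile more of them lay below 0 than above. Cacng1 passed the background flag on neither array. The genes named by the brightness of their probes were Cacng2, at 0.24, and Cacng5, at 0.35, which are gamma subunits by gene name. Whether the proteins of the gamma genes form part of calcium channels was not examined. The second Cacng2 probe is counted among those below 0. It passed the flag on the control-labelled array only, with signals of 9.80 on the FTO-labelled array and 11.3 on the control-labelled array, and has no settled direction. Cacng6, a gamma subunit named after its value was seen, had the highest difference, 0.63, with signals of 164.5 on the FTO-labelled array and 91.8 on the control-labelled array and a spot error of 0.21. It was 0.42 both with scaling to the 75th percentile and with normexp. The lowest was a probe of Cacna1i at -0.40, while the other Cacna1i probe was at 0.11.

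Of 26 genes that bind or modify the channels, all were tested with 41 probes, and none differed by more than 2-fold. Their median was 0.01, with 22 probes above 0 and 19 below. With scaling to the 75th percentile more of these probes lay below 0 than above. The RGK GTPases, small proteins that bind beta subunits and inhibit the channels, all lay below 0. This subgroup was singled out after its values had been seen. Gem was at -0.28 and -0.22 at its 2 probes, Rem1 at -0.33, Rrad at -0.20 and Rem2 at -0.13. In 3 of these 5 probes the difference exceeded the spot error, as in 32.4% of all tested probes. The 5 lay below 0 with scaling to the 75th percentile, cyclic loess and normexp, and the other alternatives left them nearly unchanged. Scaling to the 75th percentile moved the median of all tested probes to -0.08. With quantile normalization 48.6% of all tested probes lay below 0.

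Of 25 genes of calcium release, entry and clearance, 23 were tested with 36 probes, and none differed by more than 2-fold. Their median was -0.02, with 17 probes above 0 and 19 below. Atp2a2, the calcium pump that fills the endoplasmic reticulum, was at 0.04 and 0.09. The 10 beta cell markers had a median of -0.08, with Ins2 at -0.24 and Iapp at -0.19. With scaling to the 75th percentile Ins2 was at -0.64 and Iapp at -0.56, and with cyclic loess at -0.51 and -0.43. The 15 tested markers of other cell types had a median of -0.08, with Gcg at 0.01 and Ppy at -0.08. Gcg was at -0.35 with scaling to the 75th percentile, at -0.23 with cyclic loess and at -0.02 with normexp. With quantile normalization neither list held a 2-fold difference. The endothelial marker Cdh5 was at -0.78, at -1.24 with scaling to the 75th percentile and at -1.01 with cyclic loess. It passed the background flag on the control-labelled array only and has no settled direction.

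**Figure D5:**
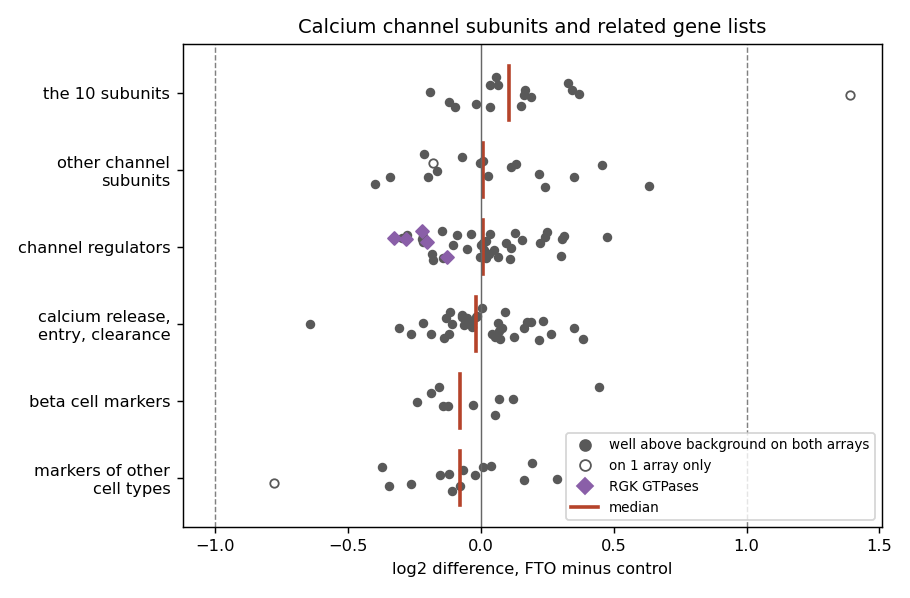
The log2 difference (FTO minus control) of every tested probe in 6 gene lists, with the list median as a bar, the 2-fold limits as dashes and open marks for probes well above background on 1 array only. As measured, Cacna1e (1.39, an open mark) is the only probe beyond a 2-fold limit, its bound of 0.87 is not, and the 5 RGK GTPase probes lie between -0.33 and -0.13.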

How the data were processed

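The authors hybridized Cy3-labelled RNA of each culture to 1 array and deposited the intensity of each spot from Agilent Feature Extraction 11.0.1.1, background-subtracted and with the surface trend removed, and a processed table of log2 values, quantile normalized in GeneSpring GX. From the spot tables, control spots and outlier spots (148 on the FTO-labelled array, 141 on the control-labelled array) were left out, spots of a probe were averaged as log2, and limma 3.58.1 in R 4.3.3 was used to quantile normalize the pair of arrays. No spot was saturated. Well above background were 82.0% of probes on the FTO-labelled array and 84.9% on the control-labelled array. A probe printed several times passed with at least 50% of its spots. Accessions were named through the RefSeq annotation of GRCm38.p6, which named 27224 of 39417 probes. The files give the older build mm9, so no coordinates are printed. Of 105 genes in the lists, 103 had a probe. Steps after normalization used Python 3.11.15. The normalization and the 2-fold limit were tested on simulated data. The simulated probes were all brighter than Cacna1e and no background flag was applied, so that test does not cover its call. The members and lists were chosen with earlier results of these data known. The named genes were every member, each list gene with a 2-fold difference, and the 2 genes with the brightest probes of each list. Some genes under this rule are not reported here. The alternatives were scaling to the 75th percentile, cyclic loess, normexp on the raw median and background intensity, the processed table, outlier spots kept, the median over spots, dim signals set to the array's lowest passing signal, other filters on background, and the brightest probe of a gene. With 1 array per condition, their number limits the precision.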

Additional observations from a re-analysis of the deposited data

How the results depend on the processing

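The count of 1177 probes with a 2-fold difference became 132 with normexp, 743 with dim signals set to the array's lowest passing signal, 491 over probes that passed on both arrays, and 2176 with no filter. Probes higher on the FTO-labelled array made up 37.2% of these 2-fold differences with quantile normalization, 28.2% with cyclic loess, 28.8% with normexp and 15.6% with scaling to the 75th percentile. The count of subunit genes with a 2-fold difference, which was 1, became 0 with scaling to the 75th percentile, normexp, dim signals raised or a pass required on both arrays. The difference of Cacna1e, 1.39, was 0.30 with normexp and 0.87 with dim signals raised, and 0.95 with scaling to the 75th percentile. The cause was not tested. The median of the subunit probes lay between 0.04 and 0.11 under every alternative run. For the 15 other subunit probes, 101 of 105 values under the 7 alternatives differed from the reported one by less than the spot error. The other 4 all came from scaling to the 75th percentile. This total says little, since several alternatives could hardly move these probes, printed once and well above background on both arrays. These were the processed table, outlier spots kept, the median over spots and dim signals raised. Of the 105 values, 6 values of 4 probes changed sign. No paired analysis was possible because there is 1 array per condition, and no array could be left out for the same reason.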

Other observations

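Slc8b1, the mitochondrial sodium and calcium exchanger, had the lowest difference among the genes of calcium release, entry and clearance, and was chosen after its values were seen. Its probe A_55_P2084860, in the area of low spots on the FTO-labelled array, had signals of 158 on the FTO-labelled array and 207.6 on the control-labelled array and a log2 difference of -0.64 (spot error 0.21). Its probe A_55_P1983968, outside the area, had signals of 671 and 464.5 and a difference of 0.19. Slc2a2, the glucose transporter upstream of the calcium channels in the beta cell, had the highest difference among the beta cell markers, 0.45 with a spot error of 0.20, and signals of 9476 and 5179. It was likewise chosen after its value was seen.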
